A study of Mus musculus with 40 samples.

Results

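The interferon-inducible GTPases described here are 10 mouse genes, Gbp2, Gbp3, Gbp5, Gbp7, Gbp9, Irgm1, Igtp, Iigp1, Tgtp1 and Tgtp2, taken by symbol from a gene expression table of 45706 genes. All 10 genes were measured, and all 10 passed the filter on low counts in each of the comparisons below. A further 19 GTPases of the same families, which were not chosen by the rule, were followed as a separate list.

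Guanylate-binding proteins (GBPs) and immunity-related GTPases (IRGs) are produced when cells receive interferon, in particular interferon gamma. They bind GTP, gather on vacuoles that hold bacteria or parasites, and help to break these open or to start inflammasome signaling. Among the IRGs, Irgm1 and Igtp act as regulators that sit on the membranes of the host, whereas Iigp1, Tgtp1 and Tgtp2 are effectors that are loaded onto the foreign vacuole. In the gut, these proteins are best known as a defense of epithelial, stromal and myeloid cells against invading microbes.

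The study sorted cells from the blood and colon of healthy mice and of mice with colon adenomas and sequenced their RNA, with 40 libraries in 10 groups of 4. Neutrophils (CD45+ CD11b+ MHCII- Ly6G+ Ly6C low) and monocytes (CD45+ CD11b+ MHCII- Ly6G- Ly6C high) came from the blood of healthy mice, the blood of tumor-bearing mice and the tumor. Epithelial cells (CD45- EpCAM+) and stromal cells (CD45- EpCAM-) came from healthy colon and from tumor. Tumor-bearing mice were Cdx2CreERT2 - Apc fl/fl animals given a single intraperitoneal dose of 25 mg/kg Tamoxifen at 8 to 10 weeks of age, so that Apc is deleted by a Cre that the Cdx2 promoter drives in colon epithelium. Their strain label starts with C57Bl6/Sv and ends in digits that differ between libraries, whereas healthy mice are labelled C57Bl6, with no transgene, no agent and no age given. In every comparison of tumor-bearing with healthy mice, tumor, strain, transgene and Tamoxifen therefore cannot be told apart. A few library titles name a pair of animals, so that these libraries were pooled. Animal numbers in the titles recur across groups of one kind of mouse, for example 3 numbers in both tumor neutrophils and tumor monocytes, so that these groups are not independent sets of animals, whereas healthy and tumor-bearing mice share no number.

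Gbp2 (chr3:142620602-142638008), Gbp3 (chr3:142560026-142573209), Gbp5 (chr3:142493978-142522344) and Gbp7 (chr3:142530342-142550149) lie side by side on the plus strand of mm10. Gbp9 (chr5:105077630-105139539, minus strand) overlaps Gbp4 and Gbp8 on the same strand. Irgm1 (chr11:48861968-48871683), Tgtp1 (chr11:48985327-48994172) and Tgtp2 (chr11:49057194-49064206) are neighbors on the minus strand, and Igtp (chr11:58199556-58207591, plus strand) overlaps Irgm2. Of all 50-base windows in the annotated transcripts of Tgtp1, 79.4% are also found in transcripts of Tgtp2, and the log2 counts of the pair had a Pearson r of 0.999 over 40 libraries. Their counts could not be told apart, so that they carry a single signal, although they stand as 2 genes in each count of members below. Reads of Gbp9 and Igtp may be shared with the genes that they overlap.

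The sequences in front of RefSeq starts of these genes are shown because they hold matches to the elements through which interferon is known to act. Promoters of 8 of the 10 members (250 bases before to 50 after the RefSeq start, build GRCm38.p6) were searched on both strands for a gamma-activated site (GAS), written TTCNNNGAA and read the same on both strands, and for an interferon-stimulated response element (ISRE), written as GAAA, any 2 bases, GAAA. Each of these 8 genes had a promoter with an ISRE match, against 3.44% of all 32851 promoters of the same length. A GAS match was present in 5 of the 8, against 8.30% of all promoters, and these 5 (Gbp5, Gbp7, Igtp, Tgtp1 and Tgtp2) held both, against 0.454% of all promoters. No GAS match overlapped an ISRE match, whereas the pairs of ISRE matches of Gbp3 and of Irgm1 overlap each other. A match is a run of letters and not a shown binding site. RefSeq starts differ from the ends of the gene spans given above, which come from GENCODE. The stretches printed below for Gbp5, Irgm1 and Tgtp1 lie inside those spans, and the stretches for Gbp2 and Gbp3 reach into them. The lines below give, in coding orientation, the 100 bases from 110 to 11 bases before the RefSeq start, with matches in capitals.
Gbp2, chr3:142620553-142620652, plus strand: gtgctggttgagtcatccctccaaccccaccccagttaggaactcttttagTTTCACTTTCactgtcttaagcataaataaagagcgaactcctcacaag
Gbp3, chr3:142559934-142560033, plus strand: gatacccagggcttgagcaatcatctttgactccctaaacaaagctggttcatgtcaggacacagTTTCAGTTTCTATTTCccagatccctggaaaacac
Gbp5, chr3:142496824-142496923, plus strand: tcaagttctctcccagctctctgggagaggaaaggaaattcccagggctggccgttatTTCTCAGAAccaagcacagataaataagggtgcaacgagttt
Gbp7, chr3:142530226-142530325, plus strand: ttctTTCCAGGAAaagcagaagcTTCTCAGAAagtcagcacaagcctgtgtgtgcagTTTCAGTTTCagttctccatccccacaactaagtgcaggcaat
Irgm1, chr11:48871431-48871530, minus strand: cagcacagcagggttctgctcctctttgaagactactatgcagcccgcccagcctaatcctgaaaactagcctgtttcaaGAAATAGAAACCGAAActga
Igtp, chr11:58199446-58199545, plus strand: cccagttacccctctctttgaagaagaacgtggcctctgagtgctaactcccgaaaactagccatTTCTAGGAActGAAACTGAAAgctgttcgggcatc
Tgtp1, chr11:48992257-48992356, minus strand: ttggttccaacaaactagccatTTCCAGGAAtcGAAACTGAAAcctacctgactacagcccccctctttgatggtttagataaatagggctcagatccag
Tgtp2, chr11:49064223-49064322, minus strand: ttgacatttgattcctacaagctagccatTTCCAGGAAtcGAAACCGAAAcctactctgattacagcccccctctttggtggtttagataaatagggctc
In Igtp, Tgtp1 and Tgtp2 the GAS match was followed after 2 bases by the ISRE match. The GAS matches of Gbp5 began 245 and 52 bases before the start, of which only the latter lies in the printed stretch. Its ISRE match also lay outside that stretch, 165 bases before the start. Gbp3 had a further RefSeq start whose promoter held no match of either kind.

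Libraries held 10717873 to 38002939 estimated counts on genes, of which 5.34% to 83.9% fell on mitochondrial genes, and levels are given as RPKM (reads per kilobase of transcript, scaled to library size). Some libraries stood apart from their labels. Tumor stromal replicates 1 and 2 resembled tumor epithelial libraries more than the other stromal ones: their 10 epithelial markers summed to 233 and 134 RPKM (tumor epithelial cells, 152 to 379 RPKM), and their 6 endothelial markers to 4.72 and 3.94 RPKM, against 140 and 141 RPKM in replicates 3 and 4. Fibroblast markers (7 genes) were low in all 4 tumor stromal libraries (6.03 to 24.1 RPKM) against 359 to 2017 RPKM in healthy stroma. In tumor neutrophil replicate 1, epithelial markers summed to 173 RPKM, against 12.6 to 40.05 RPKM in the other 3. The share of mitochondrial counts was 67.4% and 83.9% in healthy epithelial replicates 1 and 4. Tumor monocyte replicate 1 stood apart through the GTPases themselves. Its title gives the same animal number as that of tumor stromal replicate 1. Blood monocyte replicate 1 and blood neutrophil replicate 1 of tumor-bearing mice carry this number too, and the part of the animal was not tested. In bulk samples, fewer cells of a type and less RNA per cell cannot be told apart.

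The 5 GBPs were at their lowest mean level in healthy colon epithelium, and levels were high in healthy stroma and, except for Iigp1, in healthy blood. Healthy stromal cells had the highest mean RPKM for 7 members (Gbp3, Gbp9, Irgm1, Igtp, Iigp1, Tgtp1 and Tgtp2), tumor monocytes for Gbp2 and Gbp5, and healthy blood neutrophils for Gbp7. On TMM-scaled CPM (counts scaled to library size) the highest group was the same for 5 of the 10 members. On that scale healthy stroma was highest only for Iigp1 and the Tgtp pair. Tumor monocytes were highest for Gbp3 and Gbp5, and healthy blood neutrophils for Gbp2, Gbp7, Gbp9, Irgm1 and Igtp. The sum over the 10 members was 149 ± 78.0 RPKM (SD, n = 4) in healthy stroma, 91.9 ± 73.5 in healthy blood neutrophils and 64.8 ± 15.4 in healthy blood monocytes. It was 18.4 ± 2.46 and 28.3 ± 1.42 RPKM in the neutrophils and monocytes of tumor-bearing blood, and 5.16 ± 4.26 and 7.84 ± 4.09 RPKM in healthy and tumor epithelium. Neighboring groups in this order overlapped in most members, so that the order within the high groups is not larger than the spread.

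**Figure D1:**
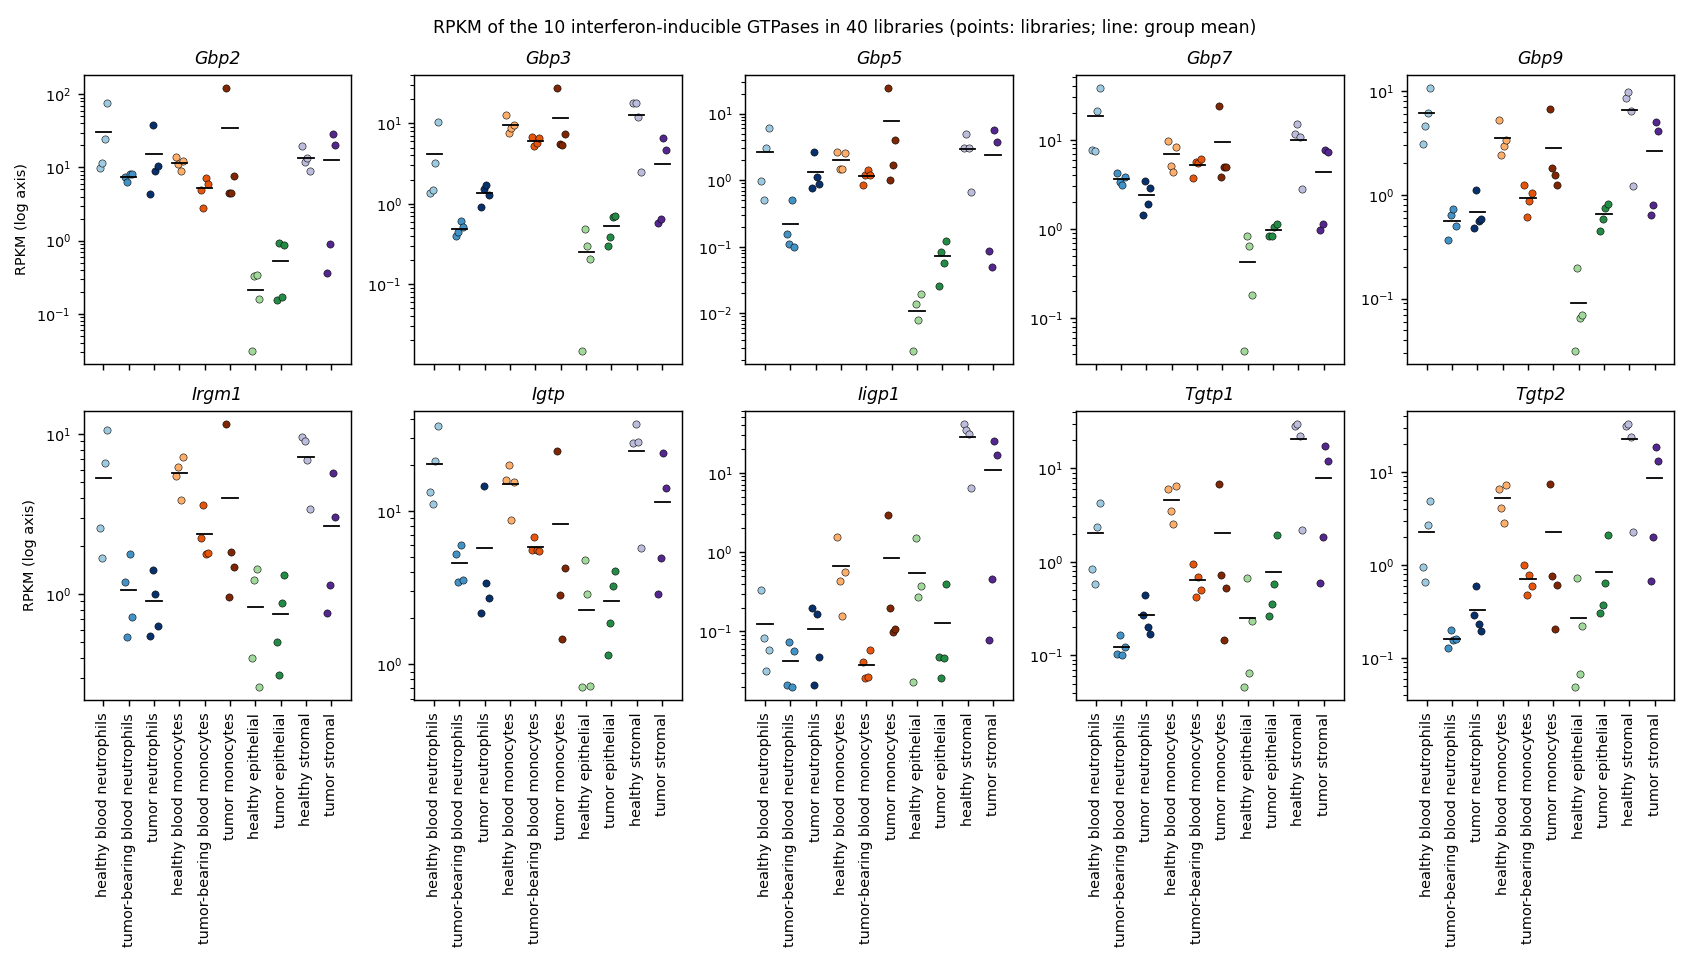
RPKM of each of the 10 GTPases (log axis) in 40 libraries, by group; points are libraries and lines are group means. Both epithelial groups sit low for the GBPs, healthy stroma sits high for Iigp1, Tgtp1 and Tgtp2, and in tumor monocytes replicate 1 lies far above the other 3 for every member.

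Iigp1, an effector IRG (chr18:60376027-60392634, plus strand), reached 41.1, 34.7, 30.4 and 6.35 RPKM in the 4 healthy stromal libraries and 25.3 and 16.97 RPKM in tumor stromal replicates 3 and 4. In blood neutrophils it stayed between 0.0200 and 0.331 RPKM, where Igtp, a regulator of the same family, ranged from 3.45 to 36.0 RPKM. The ratio of Iigp1 to Igtp RPKM was 1.15 ± 0.23 (SD, n = 4) in healthy stroma, 0.0429 ± 0.0363 in healthy blood monocytes and 0.00882 ± 0.0110 in healthy blood neutrophils. Blood myeloid cells of healthy mice thus carried far less of this effector than of this regulator, and healthy stroma carried similar levels of both.

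The ratio of the effectors (Iigp1, Tgtp1 and Tgtp2) to the regulators (Irgm1 and Igtp) within a library was 2.05 ± 0.63 in healthy stroma, 0.509 ± 0.168 in healthy blood monocytes and 0.154 ± 0.0439 in healthy blood neutrophils, and the ranges of these 3 groups did not overlap. In tumor-bearing mice the ratio was 0.177 ± 0.0710 in blood monocytes, with no library above 0.256, and the healthy libraries lay between 0.308 and 0.661. In neutrophils from the blood of tumor-bearing animals it was 0.0660 ± 0.0352, with a range of 0.0356 to 0.109 that overlapped the healthy range of 0.103 to 0.198. The ratio of the 5 GBPs to the 5 IRGs was 0.518 ± 0.196 in healthy stroma and 0.236 ± 0.107 in healthy epithelium, against 1.12 ± 0.28 in healthy blood monocytes, 1.85 ± 0.52 in healthy blood neutrophils, 3.03 ± 0.86 in tumor neutrophils and 3.84 ± 0.72 in tumor monocytes.

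Both ratios depended on which IRGs were summed. With the regulator Irgm2 and the effector Ifi47 added, the effector to regulator ratio ranged from 0.868 to 2.31 in healthy stroma, 1.08 to 2.01 in healthy blood monocytes, 0.933 to 1.63 in blood monocytes of tumor-bearing mice and 0.211 to 1.01 in healthy blood neutrophils. Stroma then overlapped both blood cell types, and healthy monocytes overlapped those of tumor-bearing mice. With the same genes added, the GBP to IRG ratio had a mean under 1 in all 4 blood groups, namely 0.671 and 0.833 in neutrophils and 0.389 and 0.625 in monocytes of healthy and tumor-bearing mice. Among tumor myeloid cells it averaged 1.18 (neutrophils) and 1.37 (monocytes), and healthy stroma and epithelium stood at 0.357 and 0.111. No test was run on these ratios, which are sums over chosen genes.

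**Figure D2:**
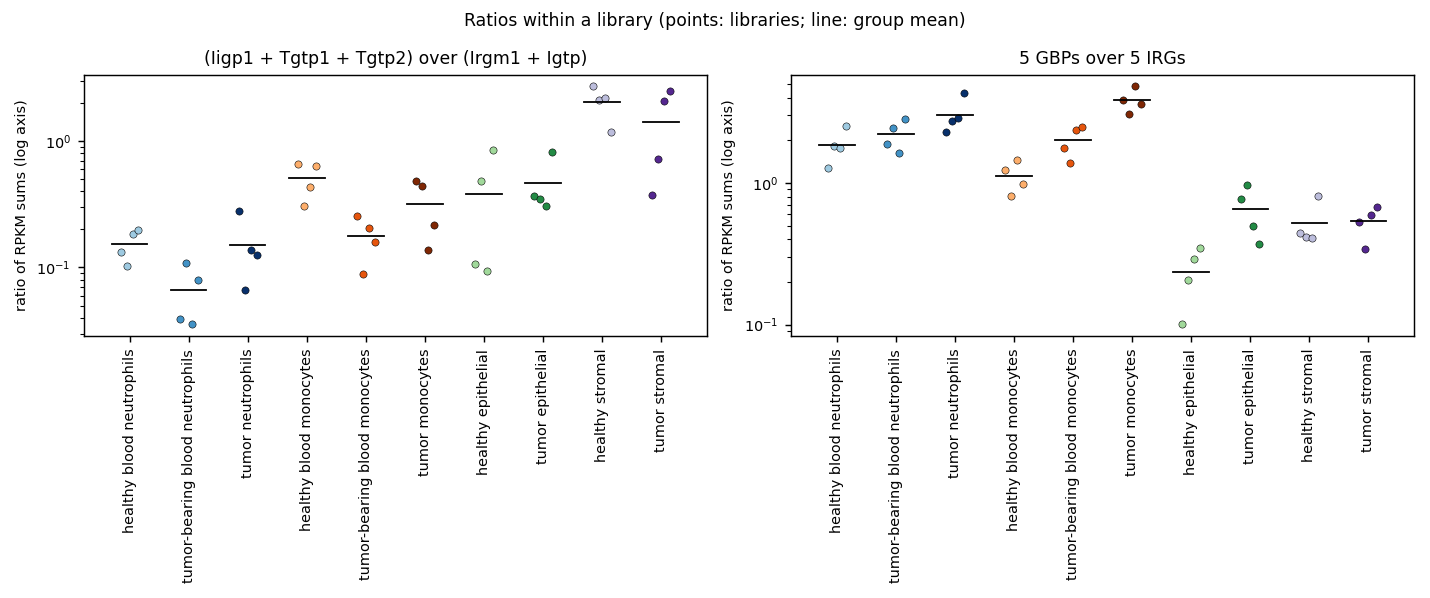
Ratios of summed RPKM within each library (log axis), on the left effector over regulator IRGs and on the right GBPs over IRGs; points are libraries and lines are group means. Effectors exceed regulators in healthy stroma (mean 2.05) and fall far below them in neutrophils, and the GBP to IRG ratio is highest in tumor monocytes (3.84) and tumor neutrophils (3.03); Irgm2 and Ifi47 are not in these sums.

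In healthy colon, all 10 members were lower in epithelial than in stromal cells, and the ranges of the 4 and 4 libraries did not overlap for any of them. Gbp5, a GBP linked to NLRP3 inflammasome assembly, was at 0.00275, 0.0136, 0.00783 and 0.0194 RPKM in epithelial libraries, where replicates 1 and 3 rest on 1.00 and 2.57 estimated counts. In stroma it was at 3.01, 4.91, 3.03 and 0.672 RPKM. Every stromal library lay above every epithelial one, with a log2 fold change of -6.47 ± 1.04 (SE; edgeR adjusted p = 0.0012).

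Gbp2, a GBP that coats vacuoles, was at 0.0313, 0.324, 0.344 and 0.157 RPKM in epithelium and at 19.9, 11.9, 13.6 and 9.01 RPKM in stroma. The groups were far apart and stroma was even (log2 fold change -4.84 ± 0.71, adjusted p = 7.79e-04). Iigp1 was at 0.0228, 1.52, 0.273 and 0.377 RPKM in epithelium against the stromal values given above. Even the highest epithelial library stayed below the lowest stromal one (log2 fold change -4.57 ± 1.09, adjusted p = 0.0086). Tgtp1 and Tgtp2 differed by -5.07 ± 1.14 and -5.19 ± 1.15 on the log2 scale, and the regulators Irgm1 and Igtp by the smallest amounts, -2.31 ± 0.41 and -2.66 ± 0.62. The members called lower were 10 of 10 (adjusted p under 0.05 and a log2 fold change beyond 1.5), against 19.4% of all 18468 genes tested. Of all genes, 11.5% were called higher, and 37.4% had epithelial ranges entirely below the stromal ones, against 4.09% entirely above. Mitochondrial genes took 48.6% to 83.9% of counts in healthy epithelium and 15.6% to 24.9% in healthy stroma. The part of this in the RPKM ranges was not tested. The median log2 fold change was -4.70 over the members and -0.14 over all genes. Of the 4 stromal libraries, replicate 4 was the lowest for each member; it had the largest fibroblast sum (2017 RPKM), B and plasma cell sum (116 RPKM) and epithelial sum (21.2 RPKM, against 2.48 to 3.42 RPKM), and the lowest endothelial sum (32.7 RPKM, against 109 to 166 RPKM). Their part in its low values was not tested. All 10 stayed called without it, without each other library in turn, and without healthy epithelial replicates 1 and 4 together.

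**Figure D3:**
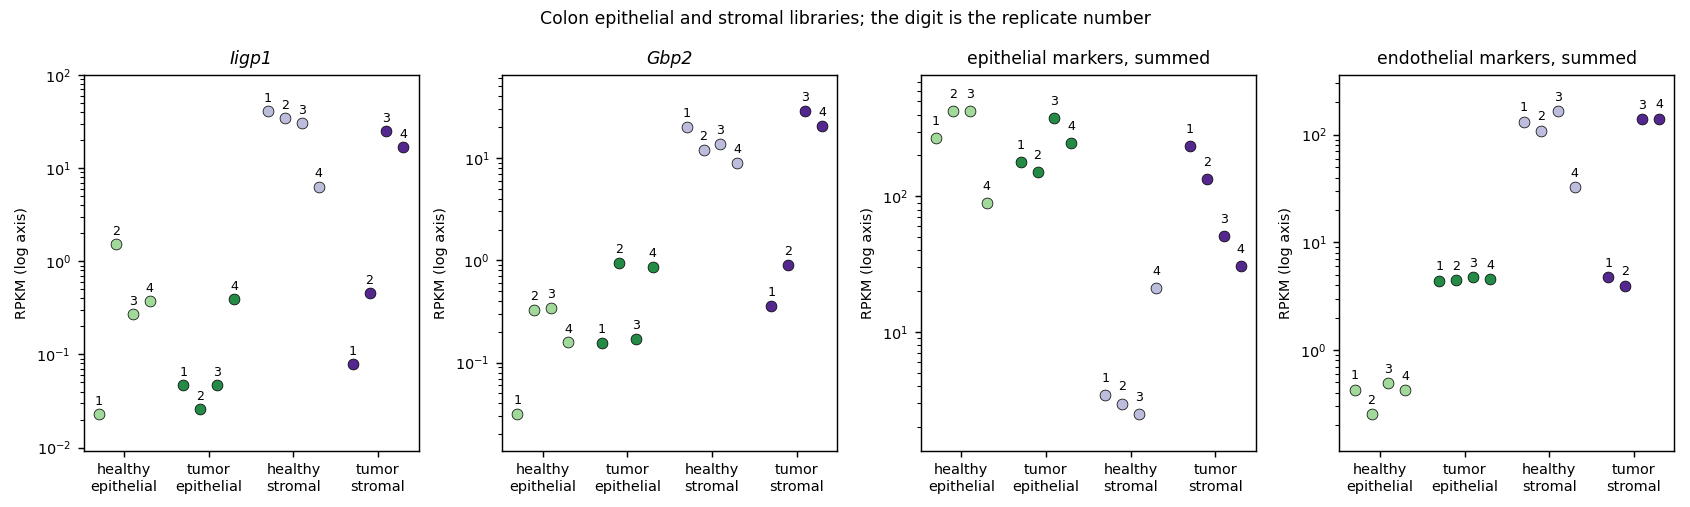
Iigp1 and Gbp2 in RPKM (log axis), and the summed RPKM of 10 epithelial and 6 endothelial markers, in each epithelial and stromal library; digits are replicate numbers. Tumor stromal replicates 1 and 2 sit with the epithelial libraries in all 4 panels, while replicates 3 and 4 sit with healthy stroma for both GTPases and the endothelial markers.

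Related lists also held genes that were lower in epithelium. Of the 19 other interferon-inducible GTPases, 16 were called lower in epithelium and none higher, with Gbp4 (-5.64), Gbp11 (-5.56), Gbp6 (-4.88) and Gm4951 (-4.42) farthest on the log2 scale. In the interferon gamma list, 7 of 23 genes tested were lower, led by the chemokine Cxcl9 (-4.36), Cd274 (-3.30), which encodes PD-L1, Cxcl10 (-3.29) and the peptide transporter Tap1 (-2.82), and the receptor chain Ifngr2 was higher (2.19). In the type I interferon list, 10 of 20 were lower, including the receptor chain Ifnar2 (-4.33) and the response genes Ifit3 (-4.28), Ifit2 (-2.96) and Ifi44 (-2.95). The autophagy partners, a list of genes of LC3 conjugation and vacuole targeting, had 3 of 12 lower, namely Gabarapl1 (-2.42), Trim21 (-2.20) and Map1lc3b (-1.51). The inflammasome list differed from the GTPases: Il18 (3.66), Casp1 (3.15) and Aim2 (2.77) were higher in epithelium, and Casp4 (-2.09) was lower, of 8 genes.

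In the blood, neutrophils of tumor-bearing mice had less GTPase RNA than those of healthy mice, and 7 of 10 members were called lower (Gbp3, Gbp5, Gbp7, Gbp9, Igtp, Tgtp1 and Tgtp2). Of all 13360 genes, 2.22% were called lower and 1.79% higher. With limma-voom and on log2(RPKM + 1) 2 members each (Gbp9 and Igtp) were called, on log2(RPKM + 0.1) 7, and with Tgtp1 and Tgtp2 added up 6. Gbp9 was at 3.10, 4.63, 6.06 and 10.7 RPKM in healthy mice and at 0.363, 0.634, 0.727 and 0.498 RPKM in tumor-bearing mice. Every healthy library was several times above every tumor-bearing one (log2 fold change -3.46 ± 0.44, adjusted p = 0.0033). It was called without each library in turn.

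The effectors Tgtp1 and Tgtp2 showed the largest log2 fold changes among the members. Tgtp1 was at 0.845, 0.581, 2.34 and 4.30 RPKM in healthy mice, with replicates 3 and 4 above 1 and 2, and at 0.102, 0.163, 0.1001 and 0.123 RPKM in tumor-bearing mice. The ranges did not overlap (log2 fold change -4.11 ± 0.68, adjusted p = 0.0085, and -3.87 ± 0.67 for Tgtp2), and this call too held without each library in turn. Gbp3 was at 1.36, 1.501, 3.21 and 10.4 RPKM against 0.396, 0.439, 0.611 and 0.519 RPKM. It did not overlap either (-3.09 ± 0.67, adjusted p = 0.025).

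Igtp was at 13.4, 11.1, 21.1 and 36.0 RPKM in healthy mice and 5.25, 3.45, 5.97 and 3.55 RPKM in tumor-bearing mice, without overlap (-2.17 ± 0.42, adjusted p = 0.016). Gbp7 was at 7.64, 7.401, 20.9 and 38.4 RPKM against 4.28, 3.38, 3.15 and 3.86 RPKM (-2.38 ± 0.53, adjusted p = 0.027). Gbp5 was at 0.975, 0.498, 3.02 and 5.999 RPKM against 0.153, 0.109, 0.512 and 0.0999 RPKM. Its ranges overlapped through tumor-bearing replicate 3, and the change was -3.60 ± 0.89 (adjusted p = 0.039). Gbp2 was at 9.84, 11.51, 24.8 and 75.1 RPKM against 7.49, 6.31, 8.05 and 8.14 RPKM, with a difference of -2.05 ± 0.61 that missed the threshold (adjusted p = 0.078). Irgm1 (-2.36 ± 0.64, adjusted p = 0.055) and Iigp1 (-1.53 ± 0.77, adjusted p = 0.28) missed it as well. The ranges were entirely lower for 7 of 10 members, against 7.75% of all genes. The median log2 fold change was -2.74 over the members and -0.01 over all genes.

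The size of these differences depended on which healthy library was considered. Healthy neutrophil replicates 3 and 4 exceeded replicates 1 and 2 for 9 of the members, all but Iigp1. Their platelet markers (3 genes) summed to 1.53 and 9.64 RPKM, against 214 and 223 RPKM in replicates 1 and 2, and their erythroid markers to 1.97 and 4.39 against 211 and 250 RPKM. Without healthy replicate 4 the members called were 6, without healthy replicate 3 or tumor-bearing replicate 1 or 2 they were 3, and without tumor-bearing replicate 4 they were 4. Neutrophil markers (7 genes) summed to 3748 to 8559 RPKM in healthy and 15514 to 20232 RPKM in tumor-bearing mice, and the part of this difference in the GTPase result was not tested.

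**Figure D4:**
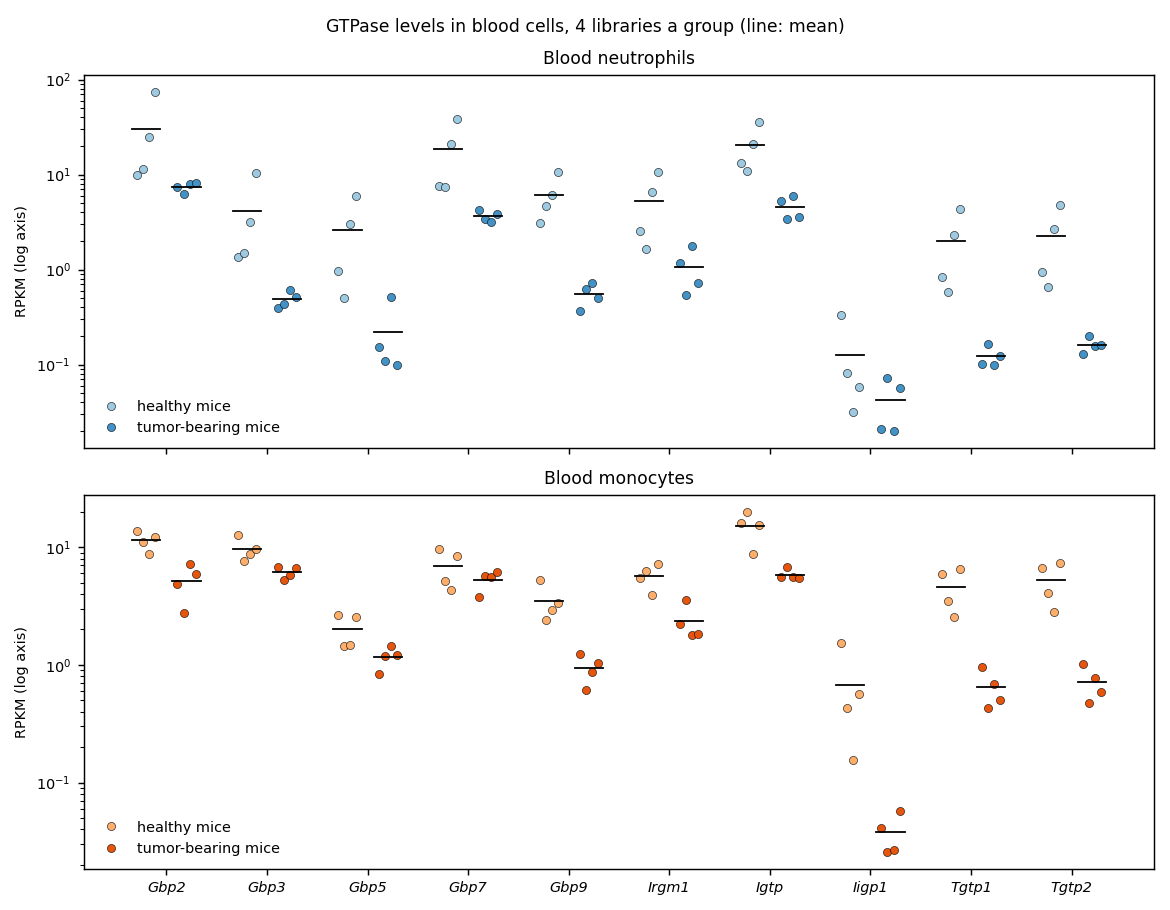
RPKM of the 10 GTPases (log axis) in blood neutrophils (upper panel) and blood monocytes (lower panel) of healthy and tumor-bearing mice; points are libraries, in order of replicate number, and lines are means of 4. Tumor-bearing libraries lie below healthy ones without overlap for 7 members in neutrophils and for 9 in monocytes.

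Genes of the interferon response outside the members were lower as well. Of the 15 other GTPases that could be tested, 12 were called lower and none higher, with Mx2 (-6.44), Ifi47 (-4.69), Gm12250 (-4.09) and Gbp4 (-3.57) farthest. The type I interferon list had 10 of 20 genes lower, led by Ifit2 (-7.34), Ifit3 (-6.21), Ifit1 (-4.96) and Isg15 (-4.48), which are response genes against viruses. The interferon gamma list had 6 of 20 lower, led by Cxcl10 (-4.40), Cd274 (-3.25), the class I transactivator Nlrc5 (-2.93) and the immunoproteasome subunit Psmb8 (-1.97). No gene was called among the 12 autophagy partners (largest values Map1lc3a, 1.37, adjusted p = 0.41, and Trim21, -1.04, adjusted p = 0.35) or the 8 inflammasome genes (Aim2, -1.42, adjusted p = 0.012, short of the fold threshold, and Il1b, -1.36, adjusted p = 0.064).

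Blood monocytes showed differences in the same direction, of which 3 were called: Gbp9, Tgtp1 and Tgtp2 were lower in tumor-bearing mice. Of these 3 calls, 2 are the Tgtp pair, with whose counts added up 1 call was left (Tgtp1 and Tgtp2 together, -2.78 ± 0.36, adjusted p = 0.021; Gbp9 then had adjusted p = 0.051), and limma-voom called none. In this comparison few genes passed at all. By edgeR 0.118% of 15313 were called lower and 0.0914% higher, and by limma-voom 8 genes were lower and 9 higher. Tgtp1 was at 5.97, 3.52, 2.53 and 6.47 RPKM in healthy mice and 0.958, 0.426, 0.695 and 0.501 RPKM in tumor-bearing mice. The lowest healthy library was above the highest tumor-bearing one (-2.76 ± 0.39, adjusted p = 0.023; Tgtp2, -2.79 ± 0.38, adjusted p = 0.023).

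Gbp9 was at 5.24, 2.42, 2.93 and 3.35 RPKM against 1.23, 0.608, 0.862 and 1.03 RPKM, again without overlap (-1.80 ± 0.29, adjusted p = 0.049). Iigp1 had the largest difference, at 1.53, 0.429, 0.155 and 0.565 RPKM in healthy mice against 0.0409, 0.0259, 0.0269 and 0.0580 RPKM, the latter resting on 4.5997 to 9.92 estimated counts a library. Its groups did not overlap, but the test missed the threshold (-3.98 ± 0.74, adjusted p = 0.082). Igtp, at 15.9, 19.9, 8.80 and 15.5 RPKM against 5.60, 6.76, 5.53 and 5.47 RPKM, also did not overlap (-1.27 ± 0.27, adjusted p = 0.11). Ranges were entirely lower in 9 of 10 members, all but Gbp7, against 5.06% of all genes. The median log2 fold change was -1.22 over the members and 0.02 over all genes. Gbp3 (-0.55 ± 0.19) and Gbp7 (-0.26 ± 0.29) had the smallest values, with adjusted p = 0.36 and 0.82.

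The calls in monocytes were fragile. Without healthy monocyte replicate 1, or without any of the 4 tumor-bearing libraries, no member was called. Few genes of any kind were called in those fits, with 0 to 5 lower and 4 to 10 higher. Without healthy replicate 4 there was 1 member, among 25 genes called lower and 11 higher. The log2 fold changes of the 3 called members stayed between -3.00 and -1.60. T and NK cell markers (9 genes) summed to 2.29 to 47.0 RPKM in healthy and 0.930 to 32.9 RPKM in tumor-bearing mice. Other genes moved as well: Ifit3 (-3.73), Ifit2 (-3.52) and Usp18 (-2.59) were lower among 20 type I genes, and Mx1 (-2.15) among 18 other GTPases. In the interferon gamma list none of 21 passed (Cxcl9, -2.86, adjusted p = 0.20, and Cxcl10, -2.78, adjusted p = 0.13). None passed among the autophagy partners (Trim21, -1.11, adjusted p = 0.21, and Gabarapl1, 0.51, adjusted p = 0.82) or the inflammasome genes (Il18, -0.95, adjusted p = 0.70, and Casp4, -0.83, adjusted p = 0.13).

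Between the blood cell types of healthy mice, 3 of the 5 GBPs were higher in neutrophils. Gbp2 (2.24 ± 0.63, adjusted p = 0.014), Gbp7 (2.29 ± 0.58, adjusted p = 0.0085) and Gbp9 (1.65 ± 0.41, adjusted p = 0.0074) were called higher in neutrophils, which is 3 of 10 members against 16.7% of 15033 genes called higher and 20.4% called lower. In RPKM the groups overlapped for all 3 of these. Healthy monocytes had Gbp2 at 13.8, 11.1, 8.84 and 12.3 RPKM and Gbp7 at 9.60, 5.11, 4.35 and 8.37 RPKM. Neutrophil replicates 1 and 2 lay within these ranges, and replicates 3 and 4 above them. Without neutrophil replicate 4, the call for 1 member remained, and on log2(RPKM + 1) no member was called. That scale placed the median of all genes at -0.26, against -0.07 for the counts. Gbp5 (1.23 ± 0.69, adjusted p = 0.16) and Gbp3 (-0.38 ± 0.61, adjusted p = 0.63) did not pass. Igtp was also higher in neutrophils, below the fold threshold (1.27 ± 0.43, adjusted p = 0.032), and Iigp1 was lower without passing (-1.64 ± 0.83, adjusted p = 0.13).

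Genes of the lists also differed between the blood cell types, where 16.7% of all genes were called higher in neutrophils and 20.4% lower. In neutrophils, 9 of 20 type I genes were higher, led by Rsad2 (4.08), Ifit3 (3.50), Ifit1 (3.44) and Oasl2 (2.71), and Ifi44 (-4.91) and Tyk2 (-2.20) were lower. Of 22 interferon gamma genes tested, Cd274 (3.73), Irf1 (1.98) and Jak1 (1.57) were higher. Another 6 were lower, led by Irf8 (-6.36), H2-Ab1 (-4.75), Cxcl9 (-4.52) and Ciita (-4.17), of which the MHC class II genes mark other myeloid cells. Irgm2 was higher (1.72) and Mx1 lower (-4.90) among 18 other GTPases tested. Of 12 autophagy partners, 2 were higher, Atg3 (3.34) and Map1lc3b (2.38), which is near the share of all genes. Of 8 inflammasome genes, Il1b (7.41) and Nlrp3 (3.09) were higher and Pycard (-1.51) lower.

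The next question was whether neutrophils changed these genes on entering the tumor. Tumor neutrophils and blood neutrophils of tumor-bearing mice are compared here, and the latter libraries also served in the comparison with healthy mice above. Gbp5 was the only member called, at 0.755, 2.62, 1.10 and 0.873 RPKM in tumor against 0.153, 0.109, 0.512 and 0.0999 RPKM in blood. Tumor libraries lay above blood libraries without overlap (2.86 ± 0.80, adjusted p = 0.033). This is 1 of 10 members, against 11.9% of 13674 genes called higher and 4.41% called lower, so that the share of members called was near that of all genes. The call for Gbp5 was lost without blood replicate 1, 2 or 4 (adjusted p up to 0.091) and held without each tumor replicate. In healthy blood neutrophils Gbp5 was at 0.498 to 5.999 RPKM, a range that overlapped that of tumor neutrophils.

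Gbp3 was at 0.923, 1.52, 1.70 and 1.28 RPKM against 0.396 to 0.611 RPKM in blood, without overlap, and missed the threshold (1.58 ± 0.52, adjusted p = 0.060). Without tumor neutrophil replicate 1, the library with many epithelial transcripts, it was called (1.81 ± 0.47, adjusted p = 0.030), for a total of 2 members. Tumor neutrophil replicate 2 was high for several members, with Gbp2 at 37.8 RPKM against 4.31, 8.98 and 10.4 RPKM and Igtp at 14.6 RPKM against 2.17, 3.38 and 2.71 RPKM. Without it the differences of Gbp2 (1.42 ± 0.73 with it) and Igtp (0.72 ± 0.75 with it) were -0.06 ± 0.39 and -0.90 ± 0.38. Gbp7 (-0.40 ± 0.44), Irgm1 (-0.04 ± 0.60) and Gbp9 (0.51 ± 0.58) were close to 0. Ranges were entirely higher in tumor for 3 of 10 members, against 13.6% of all genes. The median log2 fold change was 1.26 over the members and 0.11 over all genes. Neutrophil markers summed to 1921 to 12417 RPKM in tumor neutrophils against 15514 to 20232 RPKM in these blood neutrophils, epithelial markers to 12.6 to 173 against 0.656 to 1.55 RPKM, and mitochondrial genes took up to 37.5% against up to 16.8% of counts. None of these ranges overlapped, and their part in the result was not tested.

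Some genes of the interferon lists were higher in tumor neutrophils. In the interferon gamma list, 5 of 21 genes were called higher, led by H2-Ab1 (6.25), Cxcl9 (5.60), Cxcl10 (5.02) and Cd274 (4.56). None of 13 other GTPases passed, with Ifi47 at 2.89 (adjusted p = 0.070) and Gbp2b at 2.17 (adjusted p = 0.13). Isg15 (4.63) was higher among type I genes, Sqstm1 (2.39), an adaptor for autophagy, among the autophagy partners, and Nlrp3 (3.11) among the inflammasome genes. H2-Ab1 is itself a macrophage marker, and the 7 macrophage and MHC class II markers summed to 24.0 to 35.3 RPKM in tumor neutrophils against 2.50 to 6.88 RPKM in blood neutrophils of the same kind of mice.

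In monocytes the size of the difference between tumor and blood depended largely on tumor replicate 1. Gbp2 was at 123, 4.54, 4.43 and 7.64 RPKM in tumor and 4.89, 2.78, 7.24 and 5.88 RPKM in blood. Replicate 1 stood far above all others, and the remaining tumor libraries overlapped blood. The test missed the threshold with this library (3.04 ± 1.06, adjusted p = 0.076) and without it (0.32 ± 0.36, adjusted p = 0.61). Gbp5 was at 24.5, 1.01, 1.70 and 4.07 RPKM against 0.833, 1.19, 1.44 and 1.21 RPKM, with overlapping ranges (3.02 ± 0.89, adjusted p = 0.040). Gbp9 was at 6.70, 1.79, 1.53 and 1.23 RPKM, of which the lowest just exceeded the highest blood value (1.88 ± 0.55, adjusted p = 0.039). Iigp1 was at 2.93, 0.197, 0.0991 and 0.107 RPKM against at most 0.0580 RPKM in blood, above it in all 4 libraries (4.72 ± 1.23, adjusted p = 0.025). The blood libraries here are those of tumor-bearing mice, which also served in the comparison with healthy mice above. In healthy blood monocytes the ranges were 1.45 to 2.68 (Gbp5), 2.42 to 5.24 (Gbp9) and 0.155 to 1.53 RPKM (Iigp1). Each of these overlapped the range in tumor monocytes.

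These 3 of 10 members were called higher, against 7.76% of 15280 genes called higher and 3.89% called lower. Ranges were entirely higher in tumor for 2 of 10 members, against 10.6% of all genes. Without tumor replicate 1 none was called, and Gbp5, Gbp9 and Iigp1 stood at 1.17 ± 0.45 (adjusted p = 0.12), 0.95 ± 0.34 (adjusted p = 0.094) and 2.04 ± 0.69 (adjusted p = 0.079). Leaving out any of the 4 blood libraries also ended all calls, and without tumor replicate 4 there were 2. The median log2 fold change over the members was 1.92 with replicate 1 and 0.13 without it. The regulators Irgm1 and Igtp went from 1.03 and 0.77 to -0.47 and -0.84. Tgtp1 and Tgtp2 went from 1.97 and 1.96 to -0.26 and -0.23, and Gbp3 and Gbp7 from 1.20 and 1.11 to 0.24 and 0.03. Epithelial markers in replicate 1 summed to 1.85 RPKM, the lowest of the 4 (10.9 to 35.7 RPKM in the others), its T and NK cell markers to 0.174 RPKM, and its monocyte markers to 115 RPKM (122 to 161 RPKM in the others).

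**Figure D5:**
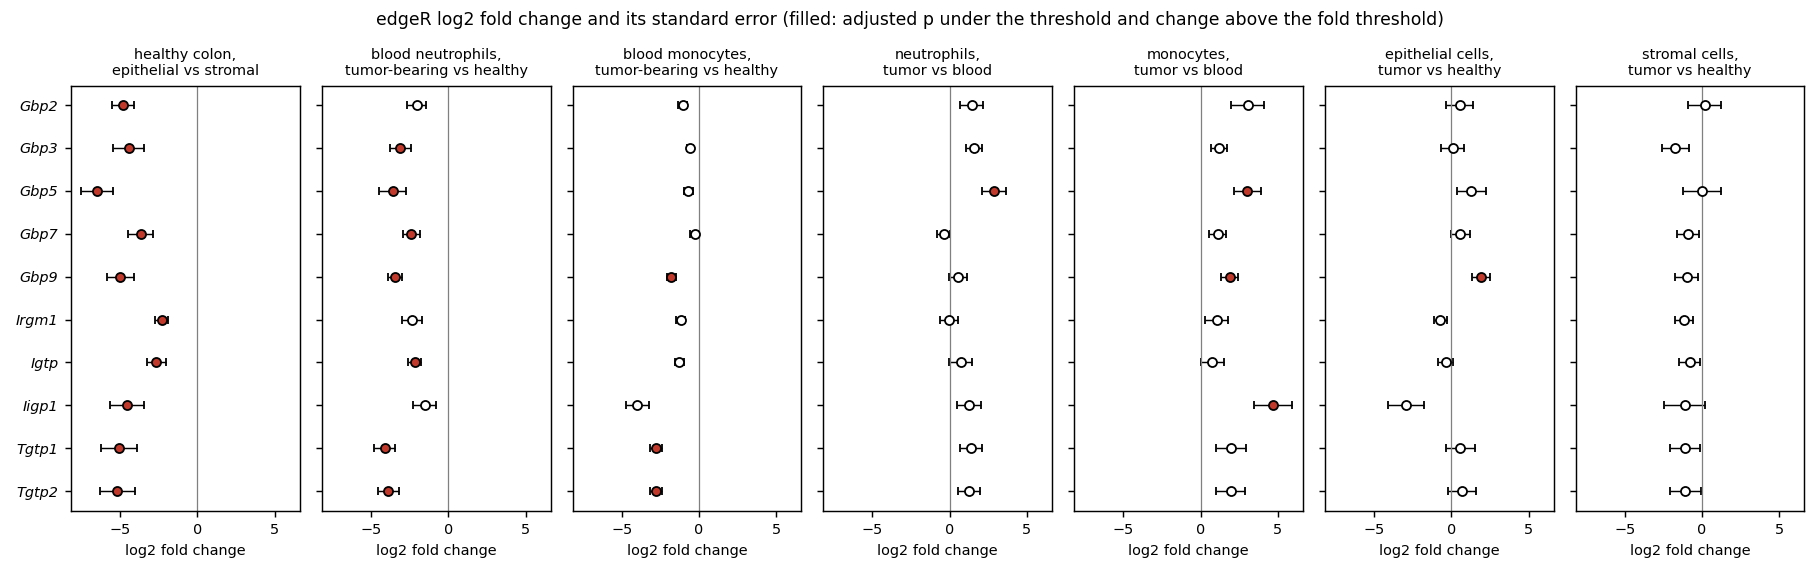
edgeR log2 fold change of each GTPase in 7 comparisons, with its standard error; filled points passed both thresholds. The members lie left of 0 for epithelial against stromal cells and for tumor-bearing against healthy blood, and few points are filled in the 4 comparisons of tumor with blood or healthy colon.

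With all libraries, tumor monocytes also had more RNA of the GTPases Gbp2b (3.97), Gbp4 (3.52), Gbp11 (3.26) and Gbp6 (3.23), among 5 of 17 called higher, and less of Gm5431 (-1.55). In the interferon gamma list, 5 of 21 were higher, led by Cxcl10 (6.67), Cxcl9 (6.26), Cd274 (5.60) and Jak2 (2.05). Tyk2 (-1.58) was the only type I gene called, and it was lower. Sqstm1 (2.86) was higher among the autophagy partners, and Il1b (6.30), Nlrp3 (3.50) and Casp4 (1.62) among the inflammasome genes. Genes of the lists were not looked at without tumor replicate 1, so their dependence on that library is not known.

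An interaction term tested if neutrophils and monocytes changed unequally between blood and tumor. No member was called by edgeR, limma-voom or DESeq2, against 2.73% of 17465 genes with a larger and 1.23% with a smaller change in neutrophils. At an unadjusted p under 0.05 there were 2 by edgeR (Gbp7 and Iigp1) and 0 by the other tools. The widest difference was that of Iigp1 (-3.60 ± 1.45, adjusted p = 0.16), followed by Gbp2 (-1.75 ± 1.34, adjusted p = 0.49). In the lists, Ciita (5.32) and Il1b (-4.63) were called. No other GTPase passed (Mx1, 3.29, adjusted p = 0.17, and Gbp6, -2.67, adjusted p = 0.16), nor did a type I gene (Bst2, 3.74, adjusted p = 0.11, and Ifit2, 3.00, adjusted p = 0.28) or an autophagy partner (Gabarapl2, 1.72, adjusted p = 0.46, and Atg3, -1.14, adjusted p = 0.26).

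Within the tumor, Gbp3 was lower in neutrophils than in monocytes, at 0.923 to 1.70 RPKM against 27.8, 5.61, 5.40 and 7.34 RPKM. No neutrophil library reached a monocyte library (-2.51 ± 0.64, adjusted p = 0.037), and without tumor monocyte replicate 1 the difference was -1.60 ± 0.54 (adjusted p = 0.15). Leaving out tumor neutrophil replicate 1, 3 or 4 or tumor monocyte replicate 3 or 4 also ended this call. The share called lower was 1 of 10 members, against 2.8% of 15003 genes, and 4.65% of genes were called higher. Ranges were entirely lower in neutrophils for 3 of 10 members, against 15.2% of all genes. The members not called lay between -2.65 (Iigp1) and 0.29 (Igtp). With the animal numbers of the titles as a block, the Gbp3 difference was -1.33 ± 0.45 (adjusted p = 0.16). That fit rests on the 3 animals with both cell types and so leaves out replicate 1 of each. In the blood of tumor-bearing mice Gbp3 was at 0.396 to 0.611 RPKM in neutrophils and 5.26 to 6.73 RPKM in monocytes, also without overlap, and in healthy mice it differed by -0.38 ± 0.61. Mx1 (-4.46) and Gbp4 (-3.53) were lower in tumor neutrophils among other GTPases, Irf8 (-4.83), Nlrc5 (-2.67) and H2-Ab1 (-2.19) in the interferon gamma list, and Atg3 (1.97) and Nlrp3 (2.22) were higher. No type I gene passed (Ifi44, -4.87, adjusted p = 0.090, and Ifit1, 3.85, adjusted p = 0.15).

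Tumor epithelium differed from healthy epithelium in a single member. Gbp9 was at 0.445, 0.583, 0.750 and 0.812 RPKM in tumor and 0.0316, 0.198, 0.0658 and 0.0693 RPKM in healthy colon. Every tumor library was above every healthy one (1.93 ± 0.60, adjusted p = 0.042), and without healthy replicates 1 and 4 the difference was 2.25 ± 0.51 (adjusted p = 0.013). Of the 8 fits that left out a single library, the call held only without healthy replicate 4 (2.58 ± 0.53, adjusted p = 0.0081), and the adjusted p of the other 7 reached 0.10. Endothelial markers summed to 4.41 to 4.76 RPKM in tumor against 0.253 to 0.492 RPKM in healthy epithelium, and erythroid markers to 11.8 to 33.9 against 0.443 to 8.42 RPKM. Gbp9 was at 1.22 to 9.82 RPKM in healthy stroma, and the part of other cells in its epithelial level was not tested. This is 1 of 10 members, against 7.52% of 16085 genes called higher and 7.88% called lower. Ranges were entirely higher in tumor for 3 of 10 members, against 20.6% of all genes, and 2.44% of genes were entirely lower.

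Iigp1 pointed the other way, at 0.0470, 0.0257, 0.0466 and 0.393 RPKM in tumor against 0.0228, 1.52, 0.273 and 0.377 RPKM in healthy epithelium. The ranges overlapped and the test missed the threshold (-2.93 ± 1.17, adjusted p = 0.10), although Iigp1 was called without healthy replicate 1 (-3.33, adjusted p = 0.038) and without tumor replicate 4 (-4.58, adjusted p = 0.034). The remaining 8 members had log2 fold changes between -0.71 and 1.28, none with an adjusted p under 0.25. Gbp4, which overlaps Gbp9, was also higher (1.94), while Gvin1 (-4.26) and Ifi47 (-2.77) were lower. In the lists, 5 of 22 interferon gamma genes were lower, led by Ciita (-4.95), H2-Ab1 (-3.18), Psmb10 (-2.43) and Psmb9 (-2.39), and so were 4 of 20 type I genes (Oas3, -3.22; Oasl2, -2.84; Irf7, -2.34; Oas1a, -1.75). Casp1 (-3.64) and Pycard (-3.32), which build the inflammasome, were lower, and Gabarapl1 (1.85) was higher.

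No member was called between tumor and healthy stroma by edgeR, limma-voom or DESeq2, with 0, 2 and 1 members at an unadjusted p under 0.05. Of all 19081 genes, 3.39% were called higher and 5.01% lower. The 4 tumor libraries did not behave as a group. Igtp was at 2.87 and 4.92 RPKM in replicates 1 and 2, and 23.9 and 14.1 RPKM in replicates 3 and 4, against 27.8, 36.9, 28.3 and 5.70 RPKM in healthy stroma. Tgtp1 was at 0.596, 1.85, 17.3 and 12.02 RPKM against 28.8, 29.9, 22.3 and 2.18 RPKM. For both genes replicates 3 and 4 fell within the healthy range, and replicates 1 and 2, whose epithelial markers were high, were below its lower end. With all libraries the largest differences were those of Gbp3 (-1.72 ± 0.85, adjusted p = 0.25) and Irgm1 (-1.15 ± 0.58, adjusted p = 0.26).

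Without replicates 1 and 2 no member was called either. Gbp2 came closest and was higher in tumor, at 28.8 and 20.4 RPKM against 9.01 to 19.9 RPKM (1.14 ± 0.32, adjusted p = 0.084), and 1 member had an unadjusted p under 0.05. Iigp1 was then at -0.14 ± 0.63 and Igtp at -0.12 ± 0.64. Neutrophil markers (7 genes) summed to 1564 and 529 RPKM in replicates 3 and 4, against 6.29 to 45.1 RPKM in healthy stroma. T and NK cell markers summed to 22.1 and 11.3 RPKM in replicates 3 and 4, against 1.38 to 19.2 RPKM in healthy stroma. Fibroblast markers of these 2 replicates summed to 20.7 and 19.8 RPKM. The part of any of these cells in the GTPase levels was not tested. With all libraries Mx2 (-2.60), Mx1 (-1.99), Ifit3 (-3.90) and Cmpk2 (-2.32) were lower in tumor stroma, and Ifngr2 (1.99) and Nlrp3 (4.47) were higher. This fit includes replicates 1 and 2, whose epithelial markers were high. In healthy colon, Mx1, Mx2, Ifit3 and Cmpk2 were called lower and Ifngr2 higher in epithelium than in stroma, and Nlrp3 was not called. Values of these genes without replicates 1 and 2 are not given here. No autophagy partner passed (Trim21, -1.47, adjusted p = 0.064, and Atg12, 1.00, adjusted p = 0.15).

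The change from healthy colon to tumor was also compared between epithelium and stroma. No member passed by edgeR, and 1 had an unadjusted p under 0.05: Gbp9, which moved up in epithelium relative to stroma (2.95 ± 1.02, adjusted p = 0.064). DESeq2 called it (adjusted p = 0.029) and limma-voom did not (adjusted p = 0.13). Gbp3 followed at 1.85 ± 1.20 (adjusted p = 0.34). With the animal numbers of the titles as a block the picture changed: Iigp1 (-7.44 ± 0.51, adjusted p = 0.0046), Tgtp1 (-4.63 ± 0.59, adjusted p = 0.012) and Tgtp2 (-4.51 ± 0.55, adjusted p = 0.011) were called smaller in epithelium, among 898 of 20901 genes. Without the block they were at -1.78 ± 1.85, 1.71 ± 1.47 and 1.81 ± 1.46, and Gbp9 went to -1.34 ± 0.61 (adjusted p = 0.24) with it. The blocked fit rests on 3 animals, of which 2 have tumors (stromal replicates 3 and 4) and 1 is healthy (replicate 4 of both cell types). Of 20901 genes, 6.81% had a called change that was larger in epithelium and 7.25% one that was smaller. In the lists, Gvin1 (-3.71), Ciita (-6.34), H2-Ab1 (-3.90), Ifngr2 (-1.96), Oas3 (-5.35), Casp1 (-3.93) and Aim2 (-2.52) were called smaller and Gabarapl1 (2.21) larger. These list values include tumor stromal replicates 1 and 2, which resembled epithelial libraries.

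Over the 40 libraries, the 8 genes whose log2(RPKM + 1) was most like the mean standardized profile of the 10 members were Gbp11 (Pearson r 0.923), Gbp4 (0.895), H2-Q6 (0.885), H2-Q4 (0.884), Gbp6 (0.879), Gm12250 (0.861), Gm18853 (0.849) and Parp14 (0.844), out of 8231 genes with a mean of at least 1 RPKM. Libraries share groups, sorting and depth, so these values describe the data only. Within the members, Irgm1 and Igtp were most alike (r = 0.910) after the Tgtp pair, and Iigp1 was least like Gbp2 (r = 0.358). Gbp9 was closest to Igtp (r = 0.891, against 0.883 with Gbp7), and each of the other 9 members was closest to a member of its own family, such as Iigp1 to Tgtp1 (r = 0.879).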

How the data were processed

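RNA from sorted cells was amplified with the NuGEN Ovation RNA-Seq V2 kit and sequenced as single reads. Reads were mapped to mm10 with Bowtie2 by the authors, who deposited estimated counts and RPKM per gene, one column a library. Annotation release, strand and treatment of reads with several matches are not given in the sources used here. Of the nonzero deposited counts, 99.6% were not whole, and they were rounded. Gene symbols (45143 of 45706) and coordinates came from GENCODE M21, promoters from RefSeq.

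Groups followed the labels, which give replicate number 3 to 2 tumor stromal libraries; the second is called replicate 4. Nothing ties replicates to separate animals beyond animal numbers in titles, so p-values measure the spread between these libraries. A title number that recurs in several groups was read as the same animal. Deviations of such libraries from their group means had correlations of -0.105 to 0.313 over genes, and the comparisons were fitted without this pairing. No replicate pair agreed within counting noise. Each comparison was fitted on its own groups over all genes with edgeR 4.0.16 in R 4.3.3 (TMM, filterByExpr, robust quasi-likelihood test, Benjamini-Hochberg adjustment). Calls needed an adjusted p under 0.05 and a log2 fold change beyond 1.5 in either direction, as in the study, which used limma-voom. Adjusted p-values in the text are edgeR's unless another tool is named. limma 3.58.1, DESeq2 1.42.0, other scalings and filters, log2(RPKM + 1) and log2(RPKM + 0.1), a replicate block (by label or by title number) and omission of each library were alternatives. The fits were tested on simulated data.

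All members were named, though not each of them in every comparison, and of each list up to 4 called genes a direction, or 2 where none was called. Members and lists were chosen with earlier results of these data known, and some lists hold genes picked for their response. Leaving out healthy epithelial replicates 1 and 4 together and the block by title number were chosen after seeing the data.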

Additional observations from a re-analysis of the deposited data

Results flagged for a closer look

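A sample was looked at again where it lay apart from the other 3 of its group by Dixon's test at the 95% level. For normally distributed values, chance alone gives this in about 1 in 20 groups. The test was run on RPKM without a log scale, so that this rate need not hold here. Over 100 member and group pairs this was so 16 times, in each case for the highest library. In tumor monocytes it was replicate 1 for all 10 members: Gbp2 at 123 RPKM, Gbp3 at 27.8, Gbp5 at 24.5, Gbp7 at 24.0, Gbp9 at 6.70, Irgm1 at 11.6, Igtp at 24.4, Iigp1 at 2.93, Tgtp1 at 6.84 and Tgtp2 at 7.52 RPKM. The members are not independent, so that these are a single library and not 10 findings. In tumor neutrophils, replicate 2 stood apart for Igtp (14.6 RPKM) and Gbp9 (1.10 RPKM). In tumor-bearing blood, neutrophil replicate 3 stood apart for Gbp5 (0.512 RPKM) and monocyte replicate 2 for Igtp (6.76 RPKM). The remaining ones were Iigp1 in healthy blood neutrophil replicate 1 (0.331 RPKM) and in tumor epithelial replicate 4 (0.393 RPKM). The cause was not tested for any of them.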

How the results depend on the processing

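All values here are numbers of members called, of 10. The 29 member calls gave 554 values under other settings, of which 426 stayed past the threshold, 128 did not, and 0 changed direction. Among 81 uncalled values, 42 changed sign in at least 1 setting and 16 were called in at least 1.

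With limma-voom, calls went from 3 to 0 for tumor against blood monocytes, 7 to 2 in blood neutrophils, 3 to 0 in blood monocytes and 1 to 0 for tumor neutrophils against monocytes. With DESeq2 they went from 1 to 2 for tumor against blood neutrophils and for epithelium, and from 0 to 1 for the interaction of epithelium and stroma. Requiring 10 counts in every library gave 2 for tumor against blood neutrophils, 0 for epithelium and 3 for healthy epithelium against stroma, where only 3 members could be tested. No filter gave 1 for tumor against blood monocytes. On log2(RPKM + 1) there were 0 for tumor against blood in both cell types, epithelium, and healthy neutrophils against monocytes, and 2 in blood neutrophils. On log2(RPKM + 0.1) there were 0 for tumor against blood monocytes and 2 for the epithelial and stromal interaction. A model of all 40 libraries gave 0 for tumor against blood neutrophils, 4 in blood neutrophils, 0 in blood monocytes and 1 for that interaction. Adding up Tgtp1 and Tgtp2 gave 1 in blood monocytes. The cause was not tested.

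Leaving out each library in turn gave 0 to 2 calls for tumor against blood neutrophils, 0 to 4 for monocytes, 3 to 9 in blood neutrophils, 0 to 3 in blood monocytes, 0 to 2 in epithelium, 0 to 1 for tumor neutrophils against monocytes, 1 to 5 for healthy neutrophils against monocytes, 10 to 10 for healthy epithelium against stroma and 0 to 1 for the epithelial and stromal interaction. With TMM-scaled CPM the highest group was the same in 5 members. With Irgm2 and Ifi47 added, the tumor neutrophil ratios were 0.487 (effector to regulator) and 1.18 (GBP to IRG).

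With the labels' replicate number as a replicate block, calls were 0 for tumor against blood neutrophils, tumor against blood monocytes, blood monocytes, and tumor neutrophils against monocytes, 5 in blood neutrophils and 10 for healthy epithelium against stroma. That number did not pair the libraries, since titles give the animals and the correlations of same-numbered deviations were not all above 0.1 in any comparison. A block on the animal numbers of the titles, chosen after seeing the data, gave 0 for tumor neutrophils against monocytes, 3 for healthy neutrophils against monocytes, 0 for the neutrophil and monocyte interaction and 3 for the epithelial and stromal one. Other comparisons share at most 1 animal. Epithelial levels of Gbp5 rest on few counts and cannot show small differences. Iigp1 fell to 0.0228 RPKM in healthy epithelium, 0.0257 RPKM in tumor epithelium and 0.0318 RPKM in healthy blood neutrophils. Its fold changes and ratios in these groups share this limit.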
